A study of Mus musculus with 4 samples.

Results

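Fibroblast-like stromal cells were found among small intestinal cells that had been sorted as group 3 innate lymphoid cells (ILC3), cytokine-producing lymphocytes of the gut lining. A cell was counted as fibroblast-like when it held at least 1 count of at least 4 of 6 matrix genes, Col1a1, Col1a2, Col3a1, Dcn, Sparc and Bgn. By this rule 442 of 10043 kept cells were fibroblast-like, 382 of 5054 in replicate 1 and 60 of 4989 in replicate 2. These were 7.56% (exact binomial 95% interval 6.84 to 8.32%) and 1.20% (0.919 to 1.55%) of the kept cells. Intervals given here cover counting error only, since cells of a replicate share their animals, preparation and run. Those of levels and ratios in replicate 1 count sequencing reads as independent. They can be too narrow even for counting error, since reads of the same molecule are not independent.

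The cells came from the small intestinal lamina propria of young C57BL/6 mice, 6 to 8 weeks of age, with no allele or treatment named in the labels. The 2 replicates were separate runs on BD Rhapsody, a microwell system that captures single cells. Antibody-bound sample tags marked the pooled samples, and cells of tag 8 (replicate 1) and tag 12 (replicate 2) were used. The labels give tag 4 for replicate 1, to which the deposited tag calls assigned 0 cells. The sort gate and the number of animals behind each tag are not given in the sources used here.

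Fibroblasts of the lamina propria are mesenchymal cells that build the collagen scaffold under the epithelium. They send WNT, BMP, growth factor and chemokine signals to epithelial stem cells and to immune cells. Textbook subsets include villus fibroblasts, which carry Adamdec1 and Sfrp1. Others are submucosal CD81+ trophocytes with Grem1 and Rspo3, Pi16+ adventitial fibroblasts around vessels, and subepithelial telocytes with Foxl1 and BMP ligands.

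The promoters of 2 collagen genes of the rule and of 2 leading genes outside it, C1qtnf3 and Aebp1, are shown because these genes were counted together in the same cells. The 250 bases before the start of each are printed from RefSeq (GRCm38.p6), on the gene's strand and 5′ to 3′. Capitals mark the letters of 2 common promoter elements on either strand, at any position. These are CCAAT, which the factor NF-Y can bind, and TATAAA, the letters of an element on which transcription complexes can assemble. The first is Col1a2 (chr6:4505368-4505617, plus strand), the chain that pairs with Col1a1 in type I collagen. The second is Col3a1 (chr1:45311288-45311537, plus strand), the chain of type III collagen. C1qtnf3 (chr15:10952082-10952331, plus strand) encodes a secreted protein with a C1q domain, and Aebp1 (chr11:5861616-5861865, plus strand) encodes a collagen-binding matrix protein.
Col1a2: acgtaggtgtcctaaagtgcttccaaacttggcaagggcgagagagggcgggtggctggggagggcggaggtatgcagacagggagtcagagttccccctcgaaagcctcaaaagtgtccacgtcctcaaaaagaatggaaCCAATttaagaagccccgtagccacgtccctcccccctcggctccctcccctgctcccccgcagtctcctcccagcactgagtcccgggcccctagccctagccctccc
Col3a1: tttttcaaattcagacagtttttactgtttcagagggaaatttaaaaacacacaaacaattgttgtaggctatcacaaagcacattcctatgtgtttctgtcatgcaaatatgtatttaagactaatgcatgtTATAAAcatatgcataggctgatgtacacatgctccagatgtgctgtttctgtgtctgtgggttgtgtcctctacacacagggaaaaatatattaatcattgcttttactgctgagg
C1qtnf3: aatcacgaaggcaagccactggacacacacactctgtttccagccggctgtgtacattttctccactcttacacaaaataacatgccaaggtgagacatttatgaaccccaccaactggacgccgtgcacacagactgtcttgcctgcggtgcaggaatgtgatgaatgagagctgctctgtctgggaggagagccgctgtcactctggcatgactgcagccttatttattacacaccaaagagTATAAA
Aebp1: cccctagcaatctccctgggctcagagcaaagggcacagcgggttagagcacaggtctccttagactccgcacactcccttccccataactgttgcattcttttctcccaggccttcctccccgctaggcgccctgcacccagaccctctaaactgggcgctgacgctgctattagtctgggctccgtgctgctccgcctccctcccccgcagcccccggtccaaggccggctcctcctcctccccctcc

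In Col1a2 the CCAAT began 109 bases before the start, and 2 copies of GGGCGG, the GC box core, began 205 and 188 bases before it. TATAAA began 117 bases before the start in Col3a1 and 6 bases before it in C1qtnf3. None of these letters were found in the Aebp1 window. Letters alone were matched, without regard to their distance from the start, and whether any acts as a promoter element was not tested. Over promoters of 250 bases, CCAAT was present in 34.5% of all 27025 and in 35.2% of the 4070 matched genes tested. It was present in 32.6% of the 602 matched genes higher in fibroblast-like cells and in 27.7% of the 235 matched lower genes. TATAAA was present in 12.97% of all promoters, in 6.39% of the 4070 matched genes tested, in 9.47% of the higher and in 8.51% of the lower genes. GGGCGG was in 32.9% of all promoters, in 63.8% of the tested, in 59.1% of the higher and in 54.5% of the lower genes. Both strands were searched, and matches of 1 motif may overlap those of another.

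In replicate 1 the tables count sequencing reads and in replicate 2 distinct molecules, so levels were compared only within a replicate. A level is the count of a gene per 10000 counts of all genes, summed over the cells of a group. Fibroblast-like cells held a median of 9701 reads and 1726.5 genes in replicate 1, against 4637 reads and 1035 genes in the other cells. In replicate 2 they held 5117.5 molecules and 2081.5 genes, against 2361 molecules and 1221 genes. Mitochondrial counts were 4.80% and 3.98% of a fibroblast-like cell, at the median, and 6.45% and 5.17% of another cell. Of the kept cell barcodes, 33 occurred in both runs, among them 1 fibroblast-like cell of replicate 1 and 2 of replicate 2.

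The 6 genes of the rule chose the cells, so their values are given as a description. Col1a1, a type I collagen chain (chr11:94936224-94953042, GRCm38), stood at 137 in replicate 1 and 170.0 in replicate 2, against 0.146 and 0.0893 in the other cells. Col3a1 stood at 112 and 127, Col1a2 at 89.9 and 113, and Sparc, a collagen-binding glycoprotein, at 102 and 108. Dcn, the small proteoglycan decorin (chr10:97479609-97518143), stood at 103.6 and 167, and its relative Bgn, biglycan (chrX:73483602-73495933), at 44.8 and 29.0. The middle 50% of fibroblast-like cells lay between 59.8 and 165 for Col1a1 and between 43.1 and 142 for Dcn in replicate 1, and between 80.2 and 218.0 and between 132 and 211 in replicate 2. Together the 6 genes made up 5.89% and 7.14% of all counts in fibroblast-like cells and 0.00799% and 0.00399% in the others. Of all counts of these genes, 99.2% and 97.8% lay in the chosen cells.

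Most chosen cells lay far inside the rule: 336 of 382 and 51 of 60 held all 6 genes. At the edge, 18 and 4 cells held exactly 4 of the genes, and 16 and 6 cells just outside held 3. In replicate 1 the median sum of the 6 genes was 12 reads with 3 genes, 15 with 4, 58 with 5 and 578.5 with 6. Ptprc, the leukocyte surface protein CD45, was counted in 68.8% of cells with 3 genes, 66.7% with 4, 42.9% with 5 and 13.7% with 6. Sfrp1, a secreted WNT antagonist that the rule did not use, was counted in 12.5%, 44.4%, 57.1% and 98.2% of the same cells. In replicate 2 Ptprc was counted in 83.3%, 75%, 60% and 37.3%, and Sfrp1 in 0%, 50%, 60% and 98.0%. Cells with all 6 genes also held more counts. Their median total was 10631 reads and 5561 molecules, against 4159.5 and 2726 in cells with 5. These shares were not thinned, so detection of Sfrp1 was not compared at equal depth. The plot of both genes by the number of rule genes shows them crossing between 4 and 6 genes. Among the other cells, 14.7% (688 cells) and 7.53% (371 cells) held at least 1 rule gene, at the levels given above. Col1a1 was 18.3% of the rule gene counts of other cells and 23.3% of those of chosen cells in replicate 1, and 22.4% and 23.8% in replicate 2. Sparc was 22.1% and 17.3%, and 21% and 15.2%.

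**Figure D1:**
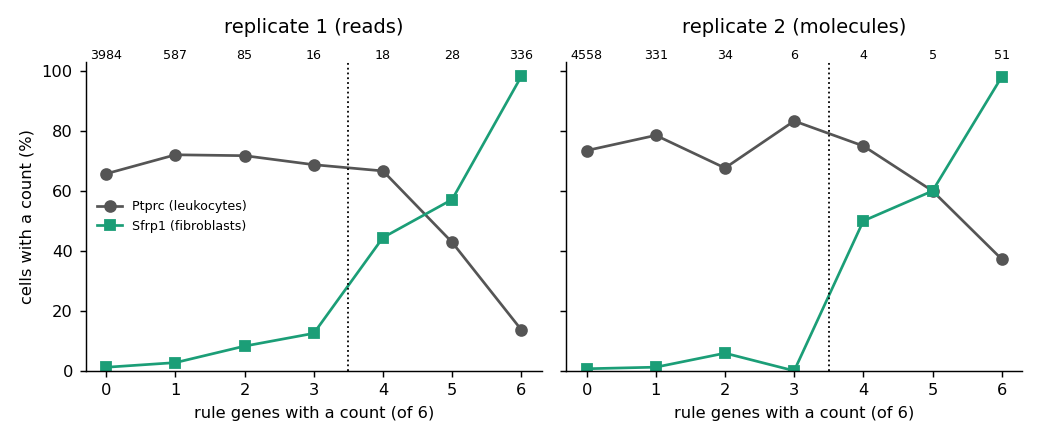
Share of kept cells with a count of Ptprc or of Sfrp1 (y axis, %) by the number of rule genes with a count (x axis), in replicate 1 (left) and replicate 2 (right). Numbers above the points are cells, and cells to the right of the dotted line are the fibroblast-like cells. Sfrp1 reached 98.2% and 98.0% where all 6 genes were counted, in cells with higher median totals and without thinning.

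The fibroblast label was checked against markers outside the rule. Of 21 such markers, 19 passed the filter on low values, and all 19 were higher. The filter kept genes counted in at least 10% of fibroblast-like or of other cells in each replicate, and higher means at least 4 times the level of the other cells in both. Over all 5190 genes that passed, 16.1% (836 genes) were higher by this measure and 6.18% (321 genes) were lower. The median log2 ratio over these genes was -0.19 in replicate 1 and -0.12 in replicate 2. A gene that passed the filter through the fibroblast-like cells alone had to differ, so counts over gene lists are a description and not support for the label. Twist2 and Prrx1, mesenchymal transcription factors, were the markers below the filter. Twist2 was counted in 7.07% and 18.3% of fibroblast-like cells, Prrx1 in 0.524% and 0%. Lum, the proteoglycan lumican, stood at 7.28 and 18.8 in fibroblast-like cells and 0.0129 and 0.00957 in the others. Cygb, an oxygen-binding globin of fibroblasts, stood at 10.6 in both replicates. Tcf21, a mesenchymal transcription factor, stood at 7.23 and 3.04.

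Leukocyte transcripts were present in part of the fibroblast-like cells. Ptprc, Cd3d, Cd3e, Cd3g or Trac was counted in 110 of 382 cells, 28.8% (24.3 to 33.6%), and in 29 of 60, 48.3% (35.2 to 61.6%), against 80.6% and 76.99% of other cells. The 8 pan-leukocyte markers summed to 10.8 and 14.0 in fibroblast-like cells and to 92.3 and 86.0 in the others. With every cell thinned to 1500 counts, at least 2 of these markers were counted in 19.3% and 32.8% of fibroblast-like cells and in 97.2% and 99.2% of others. These transcripts were concentrated in 1 cluster of cells per replicate, described further on, and in the other clusters the 8 markers summed to between 1.3 and 2.25. Cells with more than 1 sample tag, 815 of 18635 and 1997 of 19173, had been set apart in the deposited tag calls. Pairs of cells with the same tag were not removed, and their part in the values was not tested.

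The 20 leading genes were taken by the smaller of their 2 ratios. Mfap5, a microfibril protein of elastic fibers (chr6:122505845-122529290), stood at 2.30 in replicate 1 and 3.58 in replicate 2, in 32.2% and 46.7% of fibroblast-like cells. Its ratio to the other cells was 1787 (95% interval 610 to 8680) and 2245 (607 to 18762), on 3 and 2 counts in the other cells. The 3 counts of replicate 1 are reads, found in 0.0214% of the other cells, and may stem from fewer molecules. Ratios of this size are therefore rough, and the replicate 1 interval can be too narrow. C1qtnf3 was more widespread, in 70.2% and 76.7% of cells, at levels of 11.3 and 10.1 and ratios of 1554 (969 to 2669) and 1805 (866 to 4526). Aebp1 was counted in 57.3% and 70% of cells at 4.79 and 4.91.

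Several leading genes encode receptors. Pdgfra, the receptor for platelet-derived growth factors that marks gut fibroblasts (chr5:75152292-75198215), was counted in 64.1% and 76.7% of cells. Its levels were 4.19 and 5.77, and its ratios 1220.0 (618 to 2831) and 2410 (812 to 11797). Fgfr2, a fibroblast growth factor receptor, stood at 2.13 and 1.01. Antxr1, a collagen-binding receptor, stood at 2.50 and 2.82, and Colec12, a scavenger receptor, at 3.76 and 5.23. Ackr4, a decoy receptor that takes up the chemokines CCL19, CCL21 and CCL25, stood at 3.10 and 4.72 and was counted in 31.9% and 60% of cells.

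The remaining leading genes included Has1, a hyaluronan synthase, at 2.38 and 2.12, and Postn, the matrix protein periostin, at 1.49 and 5.77. Aspn, a small proteoglycan, stood at 4.32 and 4.63, Slit3, a guidance ligand, at 2.96 and 3.33, and Osr1, a mesenchymal transcription factor, at 1.01 and 1.14. Cxcl13, the chemokine that attracts CXCR5+ B cells and ILC3, stood at 4.36 and 3.23 and was counted in 34.6% and 40% of fibroblast-like cells. Pcolce2, an enhancer of collagen maturation, had 0 counts in the other cells of replicate 1, a level at least 970.0-fold higher in fibroblast-like cells. Across the tested genes the log2 ratios of the replicates had a Pearson correlation of 0.96, a description over genes, which are not independent replicates and which share the rule. No tested gene was higher by 4 times in one replicate and lower by 4 times in the other.

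**Figure D2:**
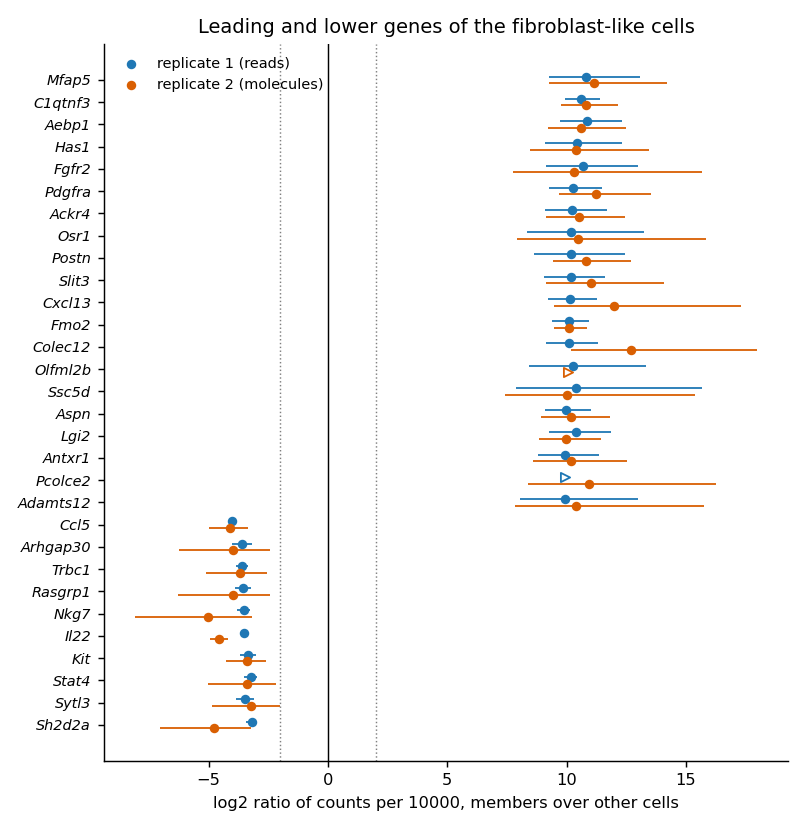
The x axis is the log2 ratio of the level in fibroblast-like cells to that in other kept cells. The y axis lists the 20 leading and 10 lower genes. Replicate 1 is in blue and replicate 2 in orange, with 95% intervals that treat each read or molecule as independent. Triangles are ratios against a floor of 3 counts, for genes with 0 counts in other cells, and dotted lines mark 4-fold. All leading genes lie to the right of 9 on this scale and all lower genes to the left of -3.

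In 3 lists of matrix genes, every gene tested outside the rule was higher, against 16.1% of all tested genes. Genes that passed the filter through the fibroblast-like cells alone had to differ. These counts, and those of the lists that follow, are therefore a description. Below the filter were 5 basement membrane genes, 1 interstitial collagen and 1 gene of the proteoglycan and glycoprotein list. Of the interstitial collagens, 11 of 11 tested were higher, with median log2 ratios of 9.12 and 10.71. All 27 tested proteoglycans and matrix glycoproteins (medians 9.10 and 8.88) and all 9 tested basement membrane genes (7.81 and 9.34) were higher too. Col6a1, a type VI collagen chain, stood at 17.1 and 14.7, Col14a1, which binds along collagen fibrils, at 10.6 and 21.1, and Col4a1, a basement membrane collagen, at 12.4 and 11.6. Fbln1, the elastic fiber protein fibulin-1, stood at 24.7 and 42.1, Dpt, dermatopontin, at 23.2 and 40.7, and Mfap4 at 18.1 and 17.7. Elastin (Eln) stood at 14.0 and 10.1. Of the listed matrix genes, Fmod, the proteoglycan fibromodulin, was nearly missing, with counts in 0.524% and 0% of fibroblast-like cells. Col6a5 was counted in 23.8% of them in replicate 1 and 6.67% in replicate 2, with 0 counts in other cells of either.

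Of 19 tested genes of collagen synthesis and cross-linking, 12 were higher and 0 lower (median log2 ratios 6.64 and 6.48). Serpinh1, the collagen chaperone HSP47, stood at 21.9 and 13.02 in fibroblast-like cells and at 0.0210 and 0.0183 in others. The lysyl oxidase Loxl2 stood at 4.94 and 3.42, and Bmp1, which cuts procollagen, at 2.43 and 2.76. P4hb, protein disulfide isomerase, which all secretory cells use, was at ratios of 3.22 and 2.54, below the 4-fold limit, and Mia3, which loads collagen into transport carriers, stood at 1.297 and 1.299 against 1.253 and 1.186 in others.

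Matrix proteases and their inhibitors were higher for 15 of 17 tested and lower for 0 (medians 6.51 and 5.96). Adamdec1, a metalloprotease-like protein of gut fibroblasts (chr14:68563380-68582095, minus strand), stood at 37.5 in replicate 1 and 13.3 in replicate 2. It was counted in 79.8% and 65% of fibroblast-like cells, and in 69.9% and 46.6% after thinning, when 0.871% and 0.490% of other cells held it. Mmp2, the gelatinase of fibroblasts, stood at 12.2 and 8.05, and the inhibitor Timp2 at 14.5 and 14.2. Ctsl, a lysosomal protease, stood at 6.98 and 7.07 and at ratios of 19.6 and 13.1. Mmp10, a stromelysin, did not pass the filter in replicate 2, where 6.67% of cells held it, and stood at 7.87 and 0.982.

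All 9 tested complement genes were higher, with median log2 ratios of 9.05 and 9.97. Serping1, the C1 inhibitor, stood at 59.9 and 54.2 and was counted in 95.8% and 100% of fibroblast-like cells. C4b stood at 39.3 and 38.0, C3 at 26.2 and 36.5, and the proteases C1s1 and C1ra at 17.6 and 22.4 and at 15.8 and 18.8. Cfb, the protease of the alternative pathway, was nearly missing, in 0.785% and 0% of cells.

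The WNT antagonist Sfrp1 stood at 35.7 (95% interval 35.1 to 36.3) and 41.8 (39.6 to 44.1) and was counted in 92.7% and 91.7% of fibroblast-like cells. Dkk3, of the Dickkopf family, stood at 3.38 and 3.99, with ratios of 4.38 and 4.42. Rspo3, the R-spondin that amplifies WNT signals in crypts, stood at 0.787 and 1.39, in 22.3% and 36.7% of cells, against 0.00172 and 0.00160 in others. The ligands Wnt2b and Wnt5a were found only in fibroblast-like cells among those kept. Wnt2b stood at 0.375 and 0.349, Wnt5a at 0.275 and 0.570. Against a floor of 3 counts in other cells, these were 291-fold and 146-fold higher for Wnt2b and 213-fold and 238-fold for Wnt5a. In all 6 of 6 WNT genes tested were higher, and 10 more were below the filter. Wnt2 and Sfrp2 had 0 counts in fibroblast-like cells of both replicates. With 4002873 reads and 315653 molecules behind these cells, a count of 0 allows levels of up to 0.00749 and 0.0950.

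BMP ligands and a BMP antagonist were both expressed. Of the BMP list, which also holds the protease Bmp1 and the receptors Bmpr1a and Bmpr2, 8 of 9 tested genes were higher and 0 lower. Grem1, the antagonist gremlin 1 (chr2:113746164-113758646, minus strand), stood at 9.57 in replicate 1 and 45.3 in replicate 2. It was counted in 56.3% and 85% of fibroblast-like cells. The ligand Bmp4 stood at 4.74 and 3.01, in 68.6% and 63.3% of cells, and Bmp2 at 1.14 and 0.507. Bmp5 was counted in 14.9% of cells in replicate 1 and 3.33% in replicate 2. Fstl1, a follistatin-like secreted protein, stood at 8.17 and 7.76. Nog, the antagonist noggin, was counted in 0% and 1.67% of cells, and Bmp3 in 0% of both.

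The hedgehog list, with receptors and targets of the signal that gut epithelium sends to mesenchyme, had 8 of 9 tested genes higher and 0 lower. Foxf1, a hedgehog target and mesenchymal transcription factor, stood at 2.05 and 1.68 and was counted in 49.7% and 50% of cells. Gli1, the transcription factor whose own transcription reports the signal, stood at 0.482 and 0.475 against 0.00215 and 0.00160 in others. Ptch1, the hedgehog receptor, stood at 1.77 and 1.01, and its ratio of 10.4 in replicate 1 was 2.61 in replicate 2. Foxl1, the telocyte transcription factor, was counted in 1.31% of cells in replicate 1 and in 0% in replicate 2.

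In the TGF-beta list 9 of 13 tested genes were higher and 0 lower (medians 4.59 and 5.66). Ltbp4, which holds latent TGF-beta in the matrix, stood at 12.0 and 16.4, and Ltbp1 at 4.38 and 2.73. Tgfbr2, a receptor chain, stood at 11.6 and 5.58 with ratios of 6.53 and 3.36. Of the ligands, Tgfb2 and Tgfb3 were higher, at 1.11 and 0.507 and at 0.740 and 0.982. Tgfb1 was below the filter, at 0.160 and 0.0950 against 0.532 and 0.575 in other cells.

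Growth factors and their carriers were higher for 13 of 15 tested and lower for 0 (medians 6.63 and 6.61). Igfbp7 and Igfbp4, which bind insulin-like growth factors, stood at 78.3 and 71.6 and at 16.2 and 16.4. Igf1 itself stood at 3.11 and 3.93, in 50.3% and 60% of cells. Igfbp5 stood at 10.6 in replicate 1 and 1.43 in replicate 2, and Igfbp3, below the filter in replicate 2, at 3.70 and 0.158. Ereg, epiregulin, a ligand of the EGF receptor, stood at 2.93 and 2.19, and Fgf7, which acts on epithelium, at 0.655 and 0.792. Hgf and Vegfd were counted in 10.7% and 18.3% and in 12.0% and 23.3% of cells. Of the receptors, 7 of 8 tested were higher and 0 lower. Egfr, the EGF receptor, stood at 0.794 and 1.11, and Ddr2, a collagen receptor, at 1.99 and 2.28.

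Of 10 chemokine genes tested, 4 were higher, Cxcl12, Cxcl13, Ccl2 and Ccl11, and 1 was lower, Ccl5. Cxcl12, which retains CXCR4+ leukocytes, stood at 10.3 and 12.2 and was counted in 82.5% and 81.7% of fibroblast-like cells. Ccl11, eotaxin, stood at 2.74 and 1.58, and Ccl2, which draws monocytes, at 5.38 and 1.77. Cxcl1, a neutrophil chemokine, stood at 21.8 against 0.234 in other cells of replicate 1 and at 2.31 against 1.16 in replicate 2. Cxcl14 stood at 1.95 in replicate 1 and 0.0950 in replicate 2. Of the lymphoid tissue stroma markers, 3 of 10 were tested, of which Cxcl12 and Cxcl13 were higher and Tnfsf11 was lower. At least 2 of these markers were counted in 35.9% and 55% of fibroblast-like cells. Ccl19, Ccl21a and the adhesion molecule Madcam1 of the same list were counted in at most 1.67%.

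Only 5 of the 5190 tested genes were at least 2 times higher in fibroblast-like cells of one replicate and at least 2 times lower in the other, and each was higher in replicate 1. They were the chemokines Cxcl2, Cxcl9 and Cxcl10, the prostaglandin enzyme Ptgs2 and Bcr, named because of their values. Cxcl10, an interferon-induced chemokine for T cells, stood at 18.99 against 6.53 in other cells of replicate 1 and at 2.63 against 10.7 in replicate 2. Cxcl9 stood at 4.40 against 0.880 and at 0.475 against 1.52, and Cxcl2 at 8.97 against 2.33 and at 2.76 against 5.94. Ptgs2, which makes prostaglandin precursors, stood at 5.04 against 2.00 and at 0.792 against 3.64. The replicates also differed in unit and in the run, so the difference between them was not tested.

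Factors that act on lymphocytes were detected at lower levels, with 4 of 7 tested genes higher and 1 lower. Il33, an alarmin, stood at 1.56 and 1.46 and was counted in 32.7% and 40% of fibroblast-like cells. Csf1, the macrophage growth factor, stood at 2.33 and 2.12, Kitl, the ligand of KIT, at 1.16 and 0.444, and Tnfsf13b, the B cell survival factor BAFF, at 0.812 and 0.507. Il6 was counted in 32.5% of cells in replicate 1 and 6.67% in replicate 2. Il7, Il15 and Tslp, cytokines that support lymphocytes, were each counted in at most 8.33% of cells. Tnfsf11, the cytokine RANKL, was the lower gene, at 0.245 and 2.09 against 2.53 and 11.3 in the other cells. In replicate 2 it was counted in 26.7% of fibroblast-like cells, and there it led the cluster with most Ptprc.

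Receptors for lymphocyte cytokines stood on both sides. Of 18 tested, 6 were higher, chains that bind IL-6 family cytokines or IL-13, namely Il6st, Il6ra, Osmr, Lifr, Il11ra1 and Il13ra1. Osmr, which binds oncostatin M, stood at 1.00 and 1.52 against 0.00901 and 0.00239, and the shared chain Il6st at 1.66 and 2.95. Il4ra and Il18r1 were lower. Il1r1, an IL-1 receptor that ILC3 carry too, stood at 1.53 and 2.22 against 2.33 and 4.65. Ltbr, the lymphotoxin receptor through which ILC3 signal to stroma, stood at 0.745 and 0.760, with ratios of 7.96 and 3.73. In the lymphotoxin and NF-kappaB list, 2 of 9 tested genes were higher and 1 lower, with 16.1% and 6.18% over all tested genes. Vcam1, an adhesion molecule, was higher, at 2.57 and 0.919, and Map3k14, the kinase NIK, was lower.

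Enzymes of retinoic acid synthesis, which imprints gut homing on lymphocytes, were detected in all 3 forms. Aldh1a3 stood at 4.05 and 1.17, Aldh1a2 at 2.02 and 1.17 and Aldh1a1 at 1.31 and 0.982, each against at most 0.0442 in other cells. Rarres2, the retinoid-induced chemerin, stood at 14.8 and 6.05. Of 9 tested genes of the list 6 were higher and 0 lower. Of the prostaglandin list, 4 of 8 tested were higher, among them Ptgs1, Ptgis and the degrading enzyme Hpgd, at 0.802 and 1.901. Of the lipid and detoxification genes, 15 of 17 tested were higher and 0 lower (medians 7.91 and 6.77). Gpx3, a secreted glutathione peroxidase, stood at 30.8 and 13.1, Sod3, the extracellular superoxide dismutase, at 17.0 and 17.4, and Apoe at 3.38 and 3.49.

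Of the mesenchymal transcription factors, 16 of 19 tested were higher and 0 lower. Id3 stood at 18.6 and 7.45, Nkx2-3, a factor of gut and splenic mesenchyme, at 5.13 and 1.901, and Zeb2 at 4.50 and 4.53. Hoxb5 and Hoxc6 were counted in 17.0% and 16.7% and in 12.6% and 13.3% of fibroblast-like cells. Twist1 and Wt1 had 0 counts in fibroblast-like cells of both replicates. Of the immediate early genes, which are switched on rapidly by many stimuli, 3 of 19 tested were higher and 1 was lower. These shares were near those over all tested genes, 16.1% higher and 6.18% lower, so the list as a whole did not stand out. Egr1 stood at 81.1 and 46.6 against 5.29 and 4.66, and Fos at 75.7 and 39.4 against 22.8 and 16.7. The interferon and MHC list had 6 of 26 higher and 1 lower. Ifitm3 stood at 24.2 and 16.1 against 0.738 and 0.377, and B2m at 80.2 and 79.8 against 57.9 and 78.5. In the heat shock list 2 of 13 were higher, Hspb1 and Cryab, also near the share over all tested genes. In the cytoskeleton list 5 of 12 were higher.

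Few genes of the remaining lists passed the 4-fold limit. No gene of the H3K4 methyltransferase list, which holds the study's gene Cxxc1, was higher or lower among 9 tested. Cxxc1 stood at 0.707 and 0.697 in fibroblast-like cells and at 0.968 and 0.830 in the others. Of the clock genes, 0 of 6 were higher and 1, Bhlhe40, was lower. Nr1d1, a clock repressor, stood at 0.672 against 1.91 in replicate 1 and at 4.47 against 2.97 in replicate 2, in 18.3% and 68.3% of fibroblast-like cells. Mki67, a marker of cycling cells, stood at 0.0700 and 0 in fibroblast-like cells and at 0.789 and 0.982 in the others. Only 2 of the 15 cell cycle genes passed the filter, and neither was higher or lower.

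**Figure D3:**
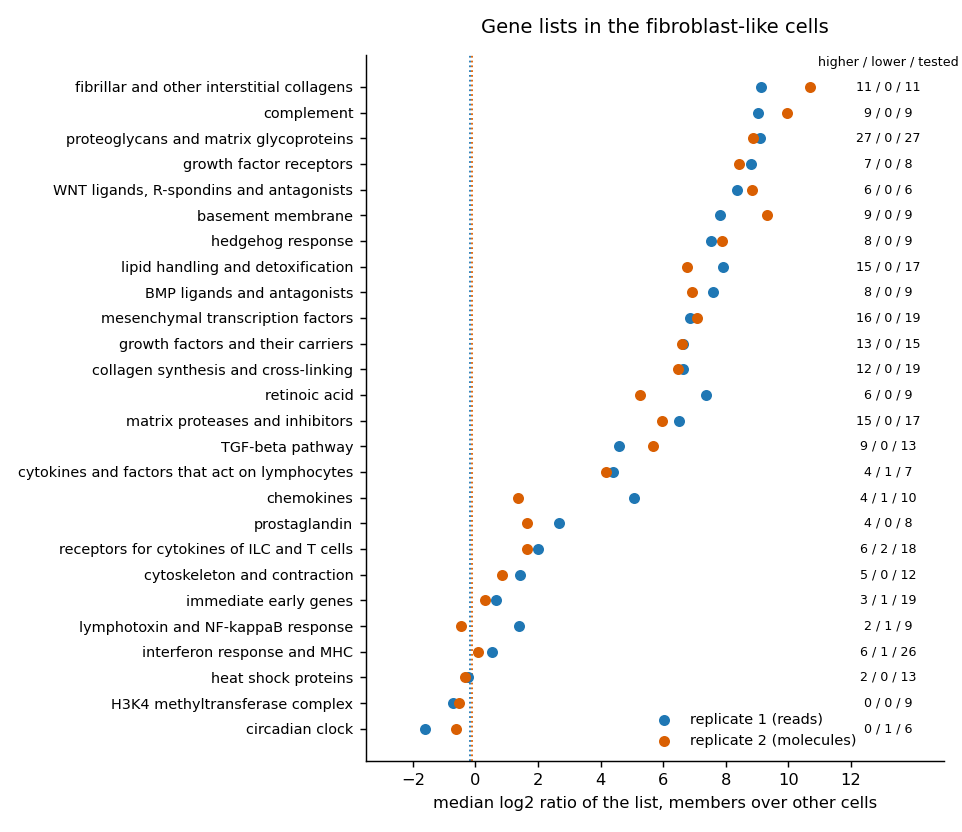
Median log2 ratio of each gene list (y axis) between fibroblast-like and other cells (x axis), replicate 1 in blue and replicate 2 in orange, for lists with at least 5 genes tested. Dotted lines are the medians over all 5190 tested genes, and the numbers on the right count genes higher, lower and tested; the collagen, proteoglycan and complement lists lie between 8.88 and 10.71, and the heat shock, H3K4 and clock lists below 0.

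Markers of other stromal cells were mostly below the filter, with Rgs5, Plvap and Gpm6b the ones called higher. For smooth muscle, 0 of 8 markers passed the filter. Acta2, smooth muscle actin, was counted in 8.38% and 0% of fibroblast-like cells, Myh11 in 1.05% and 0% and Des in 5.50% and 1.67%. Of the pericyte markers only Rgs5, a regulator of G protein signals, was tested and was higher, at 10.6 and 13.4 in 68.9% and 78.3% of cells. At least 2 pericyte markers were counted in 8.38% and 11.7% of cells. Of the markers below the filter, Cspg4 was counted in 7.07% and 1.67% of cells, Abcc9 in 1.83% and 11.7% and Ndufa4l2 in 2.62% and 5%. Notch3 and Kcnj8 were each counted in 0.262% and 0%, and Mcam in 0.785% and 0%. The endothelial genes Cdh5, Cldn5, Emcn, Esam and Egfl7 had 0 counts in fibroblast-like cells of both replicates, while Plvap stood at 0.562 and 0.3802 against 0.0859 and 0.0271 in other cells. Gpm6b, listed for glia, stood at 1.302 and 1.74 against 0.00859 and 0.0160 in other cells and was counted in 34.6% and 46.7% of fibroblast-like cells, with S100b and Gfap at 0 in both. Epcam, the epithelial marker, was counted in 0.262% and 0% of cells, and the mesothelial markers Wt1, Lrrn4 and Upk1b in 0% of both replicates.

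Marker lists of the fibroblast subsets were met by the same cells in large part. After thinning to 1500 counts, which left 379 of 382 and 58 of 60 fibroblast-like cells, at least 2 villus fibroblast markers were counted in 93.9% and 89.7% of them. For adventitial fibroblasts the shares were 90.2% and 93.1%, for CD81+ trophocytes 50.4% and 81.0% and for telocytes 14.0% and 8.62%. Without thinning they were 95.6% and 93.3%, 94.5% and 95%, 70.7% and 85.0%, and 40.3% and 38.3%. Other cells met these lists in at most 2.54% after thinning, the highest for the adventitial list, which holds Ly6a. The lymphoid tissue stroma list was met by 17.4% and 27.6% of fibroblast-like cells after thinning, and the pericyte list by 1.85% and 1.72%. Many cells met several lists, so the lists do not divide the cells into subsets. This overlap is partly built in. Cd34 is in both the trophocyte and the adventitial list, and Cxcl12 in both the villus and the lymphoid tissue stroma list. Some listed genes, such as Sfrp1 and Clec3b, were also counted in most fibroblast-like cells.

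The defining adventitial genes were less common than the list as a whole. Pi16 stood at 0.887 and 1.299 and was counted in 10.5% and 20% of fibroblast-like cells, and Dpp4 in 2.62% and 1.67%. Clec3b stood at 20.5 and 24.2 in 89.3% and 90% of cells, and Cd34 at 8.18 and 10.6 in 69.4% and 81.7%. Of the trophocyte list, Cd81 stood at 0.432 and 2.50 in 13.4% and 50% of cells, and at 0.311 and 1.59 in other cells. Of 12 telocyte markers only Bmp4, Wnt5a and F3 passed the filter.

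**Figure D4:**
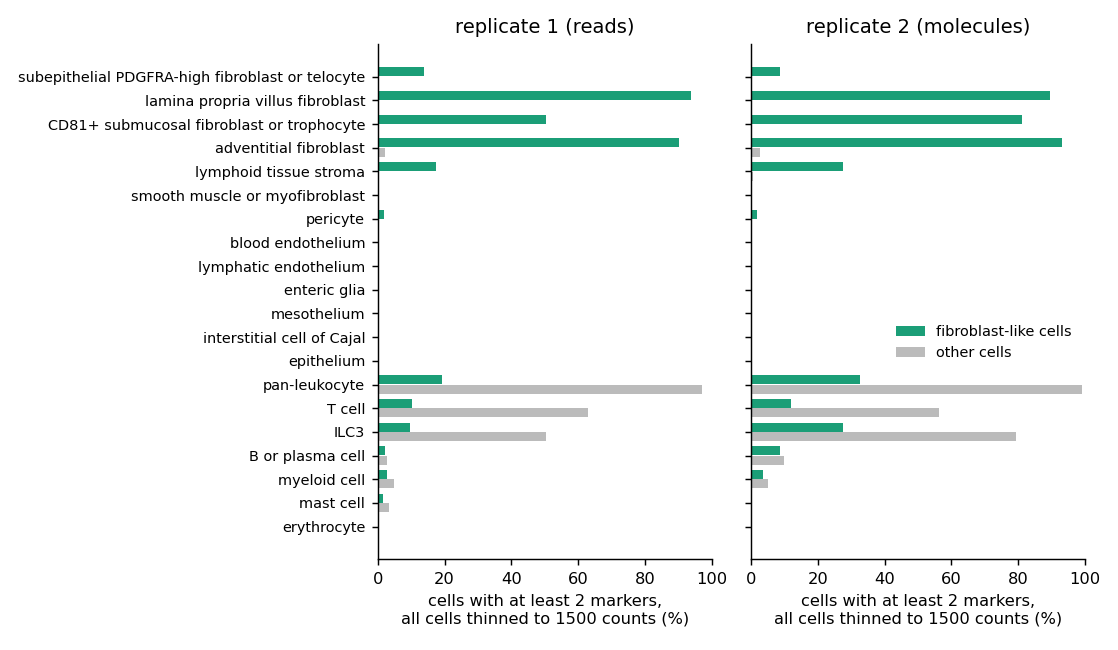
Share of cells with a count of at least 2 markers of each list (x axis, %), after every cell was thinned to 1500 counts, in fibroblast-like cells (green) and other kept cells (grey), replicate 1 left and replicate 2 right. The villus and adventitial fibroblast lists reach 89.7 to 93.9% of fibroblast-like cells, and the smooth muscle, endothelial, glial, mesothelial and epithelial lists at most 0.264%.

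The 10 genes that led those lower in fibroblast-like cells were Ccl5, Arhgap30, Trbc1, Rasgrp1, Nkg7, Il22, Kit, Stat4, Sytl3 and Sh2d2a. Il22, the cytokine by which ILC3 act on epithelium, stood at 2.45 against 27.8 in replicate 1 and at 2.00 against 47.1 in replicate 2. After thinning it was counted in 8.44% and 13.8% of fibroblast-like cells and in 33.8% and 54.4% of others. Ccl5, a chemokine of T and NK cells, stood at 1.42 against 23.1 and at 0.444 against 7.67. Kit, the stem cell factor receptor of ILC3, stood at 0.192 against 1.95 and at 0.412 against 4.28. Of the tested ILC3 markers 7 of 9 were lower and 0 higher, and of the T cell markers 7 of 8. Igkc, an antibody light chain and not a matrix gene, stood at 42.2 against 35.5 in replicate 1 and at 2.57 against 51.9 in replicate 2.

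The fibroblast-like cells of each replicate were then clustered on their own, to describe how they vary. The clusters were made from all genes of these cells, so their leading genes are a description, and no cluster was given a subset's name. In replicate 1, 6 clusters held 92, 72, 70, 58, 55 and 35 cells, and in replicate 2, 2 clusters held 40 and 20 cells.

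Cluster 2 of replicate 1 (72 cells) and cluster 2 of replicate 2 (20 cells) held most of the leukocyte counts. Ptprc was counted in 69.4% and 90% of their cells and in 2.86 to 10.9% and 17.5% of the cells of the other clusters. The pan-leukocyte markers summed to 46.1 and 37.7 there. The leading genes were Nt5e, Rasal3 and Ffar2 in the first and Tnfsf11, Nrgn and Nfkbid in the second. The fibroblast markers outside the rule still summed to 164 and 204, against 295 to 381 in the other clusters. The median sum of the 6 rule genes was 186 and 139 counts, against 311 to 913 and 383. The median total, 9688 reads and 5338 molecules, was within the range of the other clusters in replicate 1 (8867 to 11663) and above the 5117.5 molecules of cluster 1 in replicate 2. In replicate 1, Igkc stood at 198 in this cluster and 1.39 in the other fibroblast-like cells. It was counted in 33.3% and 35.5% of these cells, so the difference lay in high counts of part of the cluster and not in how many cells held it. Without these clusters, 310 and 40 cells were left, with 911 genes higher and 491 lower.

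Cluster 3 and cluster 5 of replicate 1 differed in several secreted factors and receptors, which were picked for the comparison after their values were seen. In cluster 3 (70 cells, 18.3%) Grem1 stood at 24.1, Cxcl13 at 10.98, Ackr4 at 10.4, Ogn, the proteoglycan osteoglycin, at 9.77 and Pi16 at 3.58. In cluster 5 (55 cells, 14.4%) the same genes stood at 2.40, 1.54, 0, 0.977 and 0. Cluster 5 instead held Adamdec1 at 72.6, Igfbp3 at 20.5, Aldh1a3 at 14.5, Cxcl14 at 9.32, Bmp4 at 8.67 and Fgfr2 at 7.05, against 4.57, 0.0665, 0.333, 0.213, 2.89 and 0.519 in cluster 3. The matrix protease Mmp10 stood at 40.6 in cluster 5 and at 3.07 in the other fibroblast-like cells together. Acta2 reached its highest level, 1.47, in cluster 5, and Wnt4 was counted in 21.8% of its cells and in 0% of the others. The telocyte markers summed to 23.9 in cluster 5 and to between 4.94 and 9.84 in the other clusters of replicate 1. Most of this sum came from Cxcl14 and Bmp4, picked above. F3 of the same list stood at 0.469 in cluster 5 and at 0.642 in the other fibroblast-like cells. The villus fibroblast markers also summed highest in cluster 5, to 204.5, against 81.4 to 187.4 in the other clusters of replicate 1. Cd34 stood at 1.49 in cluster 5 and at 11.3 in cluster 3.

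Clusters 1 and 4 of replicate 1 had the highest levels of the chemokines Cxcl1 and Ccl2. Cxcl1 stood at 42.7 and 30.3 there, against 5.33 to 17.5 in the other 4 clusters, and Ccl2 at 9.26 and 8.69, against 0.234 to 3.81. Has1 stood at 4.83 in cluster 1 and Adamdec1 at 71.7 in cluster 4. In cluster 1 of replicate 2, Grem1 stood at 54.2, Ogn at 9.21, Postn at 6.92 and Ackr4 at 5.65. In cluster 2 they stood at 28.8, 3.35, 3.62 and 2.99, and the fibroblast markers outside the rule were lower there too, as given above. Adamdec1 stood at 10.3 in cluster 1 and 18.9 in cluster 2.

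**Figure D5:**
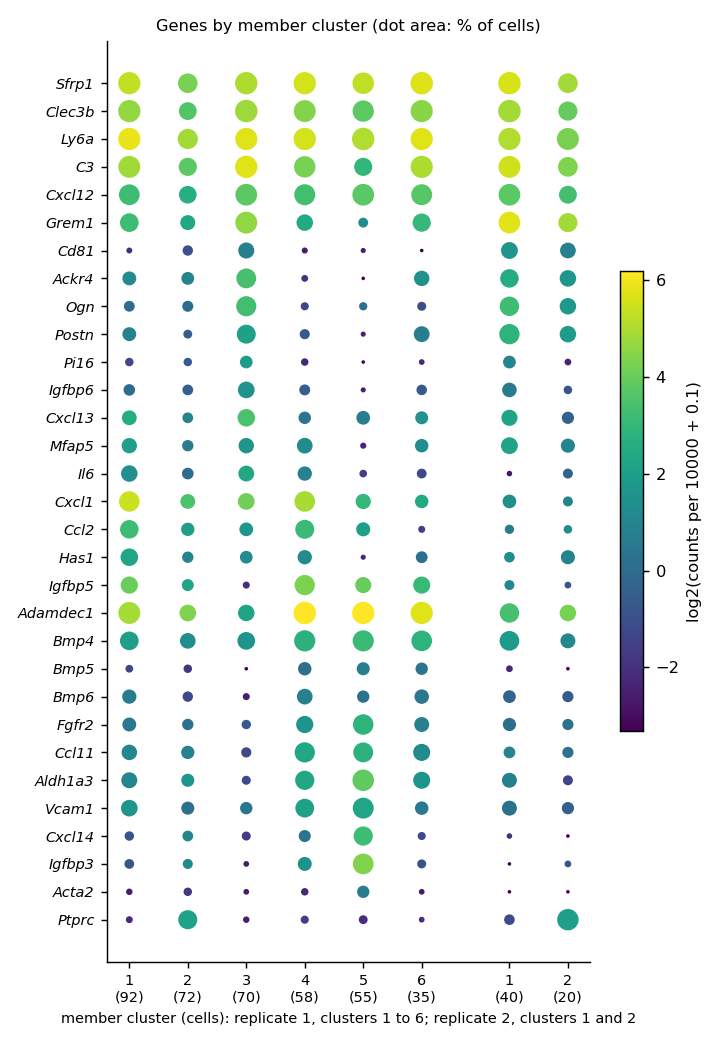
Levels of 31 genes (y axis, chosen after their values were seen) in the clusters of fibroblast-like cells (x axis, with the number of cells), 6 of replicate 1 and 2 of replicate 2. Color is log2 of the count per 10000 plus 0.1, and dot area is the share of the cluster's cells with a count; Ackr4, Ogn and Pi16 are highest in cluster 3, and Igfbp3, Cxcl14 and Aldh1a3 in cluster 5 of replicate 1.

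Single genes picked after their values were seen were then set against each other in single cells, with each cell thinned to 3000 counts. Thinning equalised total counts, which are reads in replicate 1, where the median before thinning was 10702 in cells with and 8883 in cells without Adamdec1, and 10984 and 9079 with and without Grem1. This left 362 and 49 fibroblast-like cells. In replicate 1, 269 of them held Adamdec1 and 93 did not. Ackr4 was counted in 17.8% (13.5 to 23.0%) of cells with Adamdec1 and in 51.6% (41.0 to 62.1%) of cells without, Ogn in 7.81% and 46.2%, Cd81 in 2.97% and 26.9% and Pi16 in 2.97% and 21.5%. In the other direction, Igfbp5 was counted in 52.0% (45.9 to 58.2%) of cells with Adamdec1 and 6.45% (2.40 to 13.5%) of cells without. Aldh1a3 was counted in 48.3% and 7.53%, Fgfr2 in 39.8% and 5.38%, Igfbp3 in 27.9% and 0% and Bmp4 in 64.3% and 30.1%. In replicate 2, with 34 and 15 cells, Ackr4 was counted in 52.9% (35.1 to 70.2%) and 46.7% (21.3 to 73.4%), Ogn in 61.8% and 66.7% and Aldh1a3 in 29.4% and 26.7%, and their intervals overlapped in these few cells. Igfbp5 was counted in 8.82% (1.86 to 23.7%) and 13.3% (1.66 to 40.5%), Bmp4 in 64.7% and 66.7% and Cd81 in 44.1% and 40% of these cells. Ackr4, Igfbp5, Bmp4 and Cd81 were opposite in direction to replicate 1, and Ogn and Aldh1a3 were not. All these intervals overlapped. With so few cells no direction was read from replicate 2, and overlap does not show that the shares were equal. Fgfr2 (23.5% and 6.67%) and Ccl11 (32.4% and 0%) had the direction of replicate 1. So had Pi16 (11.8% and 20%) and Igfbp3 (2.94% and 0%), and the intervals of each of these genes overlapped too.

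The cells were also set apart by Grem1. Of 185 cells of replicate 1 with Grem1 and 177 without, Ackr4 was counted in 42.2% (35.0 to 49.6%) and 10.2% (6.14 to 15.6%), Postn in 33.5% and 6.22%, Ogn in 29.7% and 5.09% and Rspo3 in 17.8% and 6.22%. Cxcl14 was counted in 7.57% (4.20 to 12.4%) of cells with Grem1 and 25.99% (19.7 to 33.1%) of cells without, Igfbp3 in 9.73% and 32.2% and Aldh1a3 in 24.3% and 52.0%. In replicate 2 only 4 of 49 cells lacked Grem1, too few to compare. Ptprc was counted in 12.97% and 14.7% of the cells with and without Grem1 in replicate 1, and in 10.4% and 23.7% of the cells with and without Adamdec1.

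Pi16, the adventitial marker, was counted in 28 cells of replicate 1 and 7 of replicate 2 at this depth. Mfap5 was counted in 60.7% (40.6 to 78.5%) of the 28 and in 22.2% (17.8 to 27.0%) of the other 334, and in 85.7% (42.1 to 99.6%) and 42.9% (27.7 to 59.0%) in replicate 2. Igfbp6 was counted in 60.7% and 11.7% in replicate 1 and in 57.1% and 14.3% in replicate 2. Adamdec1 was counted in 28.6% and 78.1% in replicate 1 and in 57.1% and 71.4% in replicate 2. Dpp4 was counted in 7.14% and 0.599% in replicate 1 and in none of these cells in replicate 2.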

How the data were processed

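Reads and molecules per cell were measured by BD Rhapsody single-cell RNA sequencing of 2 replicates, in 4 deposited samples (a tag and a transcriptome library each). Per the file headers, the authors made the deposited counts per gene and cell with BD Rhapsody pipeline versions 1.8 and 1.9.1. The submitters' processing notes name HISAT2 2.0.5, Bowtie2 and mm10. The replicate 1 table holds reads and the replicate 2 table molecules, so only the second is free of amplification duplicates.

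Tables were joined to the tag calls by cell index. Cells with at least 300 genes and under 20% mitochondrial counts were kept (248 and 21 were dropped). Kept cells held 913 to 47258 reads or 760 to 27495 molecules. Levels are summed counts per 10000, with exact Poisson intervals. Shares have exact Clopper-Pearson intervals and ratios conditional exact binomial ones, all at 95%. All of them cover at most counting error. In replicate 1 the intervals of levels and ratios treat each read as independent. Reads of the same molecule are not, so these intervals can be too narrow. A ratio against 0 counts was taken against a floor of 3 counts. No test was run, since members were chosen by expression in the same cells.

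Leading genes were the 20 with the largest smaller ratio among higher genes found in at least 20% of fibroblast-like cells, and lower genes the 10 at the other end, found in at least 20% of other cells. From each of 27 gene lists the most abundant members, those whose role is explained and those in no cell could be named, and all genes of 22 marker lists. The members and lists were chosen with earlier results of these data known. Clusters used scanpy 1.11.5 and igraph 0.11.9 (Leiden, 2000 variable genes, 15 components, 10 neighbours, resolution 0.5). No doublet caller was run. On simulated data, 99 of 100 genes made 8-fold higher and 100 of 100 made lower were called, with 0 unchanged genes called among 5199 tested. The simulated cells were drawn from the mean profile of the other cells, without cell types or duplicate reads. Only genes found in at least 20% of other cells of replicate 1 were changed. This checked the calling steps alone and cannot give an error rate for the real cells. Alternatives changed the rule, cell filters, gene filter, ratio and depth, or left out cells or a replicate.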

Additional observations from a re-analysis of the deposited data

How the results depend on the processing

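Of 62 alternative values for the cell and gene counts, 50 moved by less than the limit set for each. The limit was a count of genes within 1.5 times the main one and a count of cells within its interval. Counts have no sign, so a reversal was not defined for them. Alternatives chosen after seeing the data were all 6 rule genes, leaving out the clusters with most Ptprc, leaving out barcodes of both runs, and using other cells with no rule gene. Asking for all 6 genes left 336 cells in replicate 1, against 382. Leaving out cells with a count of Ptprc, Cd3d, Cd3e, Cd3g or Trac left 272 and 31, and leaving out the clusters with most Ptprc left 310 and 40, with 491 genes lower against 321. Thinning every cell to 1500 counts gave 375 genes higher and 166 lower, of 2272 tested. A ratio of 2 gave 837 lower genes and a ratio of 8 gave 51. With no filter on low values, 1516 genes were higher and 516 lower, of 15835. With 1 replicate left out, 1037 to 1166 genes were higher and 469 to 479 lower. Among 391 named genes, under the alternatives run for single genes, 636 values moved and 2492 did not. A value moved when it shifted by more than the standard deviation of that gene's log2 ratios in the 2 replicates. Of the values, 354 of 1832 moved for higher genes, 149 of 296 for lower genes and 133 of 1000 for genes called neither. A change of sign was recorded only for called genes and was seen for none of the 229 higher (rule genes included) and 37 lower ones. It was not recorded for the 125 genes called neither. The cause of these shifts was not tested, apart from thinning and the filters, which change how many genes are tested. No paired analysis was possible because no result comes from a test. Depth limits the lowest levels: 3 counts are a level of 0.00749 in the fibroblast-like cells of replicate 1 and 0.0950 in the 60 cells of replicate 2.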
